A study of Mus musculus with 3 samples.

Results

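The population described here is the ALCAM- Sca-1+ fraction of endosteal cells, the cells that line the inner surface of bone, set against the other 2 endosteal fractions of the same study. Cells were freed by collagenase from pieces of femur and tibia of C57BL/6 mice, cells bearing CD45 (blood cells), CD31 (vessel lining) or Ter119 (red cells) were left out, and the remainder was sorted by the adhesion molecule ALCAM and the progenitor surface protein Sca-1. The 3 fractions were ALCAM- Sca-1+ (here Sca-1+), ALCAM- Sca-1- (here marker-negative) and ALCAM+ Sca-1- (here ALCAM+). All 3 share the strain and the sort on CD45, CD31 and Ter119, and the labels name no treatment, age, sex or number of mice. Each fraction was measured on 1 of the 3 arrays, so no difference has a replicate check, no test was possible, and the size of a difference cannot be set against a spread between mice or sorts.

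Signals are MAS5 signal intensities in arbitrary linear units and are given in the order Sca-1+, marker-negative, ALCAM+. Values were raised to a floor of 75.4, the median of all values of the 3 arrays, before any ratio was taken. Of 18193 named genes, 12643 exceeded the floor on at least 1 array and are called measured. A gene is called higher where Sca-1+ lay at least 4-fold above the brighter of the other arrays, and lower where it lay at least 4-fold below the dimmer of them. By this rule 510 genes (4.03% of those measured) were higher than on both other arrays and 254 (2.01%) were lower. Against the marker-negative array alone 690 genes (5.46%) were at least 4-fold higher and 595 (4.71%) at least 4-fold lower, and against the ALCAM+ array alone 741 (5.86%) and 504 (3.99%). Without any fold, Sca-1+ was the brightest of the 3 arrays for 4896 genes (38.7%) and the dimmest for 4169 (33%). A fold is always that against the nearer of the other arrays, and it is written as at least that size where the dim value lay at or below the floor.

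As background, the tissue around bone marrow holds several kinds of connective tissue cell. Fibroblast-like stromal cells around vessels and along bone make interstitial matrix and release factors that keep blood-forming cells in the marrow, among them the chemokine CXCL12 and the growth factor IGF-1. Fibroblasts that carry Cd34, Pi16 and Dpp4 are known from the outer sheath of vessels and the fascia of many organs. Chondrocytes instead make a sulphated cartilage matrix around collagen types II, IX and XI, and osteoblasts make and mineralize bone matrix.

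The 5 genes taken as marks of the Sca-1+ fraction, which were chosen with earlier results of these arrays known, were each brightest on its array. Cd34, a surface sialomucin of progenitor cells, had signals of 18453, 427 and 21.7. Pi16, a secreted peptidase inhibitor gene of adventitial fibroblasts, had 13721, 17.3 and 9.70, and its other probe set pointed the same way. Dpt (dermatopontin, a collagen-binding matrix protein) read 24429, 746 and 254, and Mfap5, an elastic microfibril gene, read 8775, 104 and 59.2. For Cd34, Dpt and Mfap5 the marker-negative array came between the others, whereas for Pi16 both others lay below the floor. For Cxcl12 the chosen probe set read 20123, 778 and 319.7, whereas its 2 dimmer probe sets read 1086.5, 650 and 161 and 77.1, 22.6 and 4.30, the first with a smaller gap to the marker-negative array and the last at or below the floor on both others. Of the sorting genes, Alcam read 41.1, 36.3 and 268, high on the ALCAM+ array alone, and Sca-1 itself is not analysed here.

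The arrays had been brought to 1 scale, with a trimmed mean of 500.00 each, and 48.9% to 51.4% of probe sets exceeded the floor. Ptprc, the gene of CD45, read 163, 159 and 11.6, and the gene of CD31, Pecam1, was below the floor on all 3 arrays. RNA controls added before labelling were dimmer on the Sca-1+ array, with a geometric mean of 228 against 272 on the marker-negative and 420 on the ALCAM+ array. Divided by these controls, the split became 777 higher and 156 lower genes, 83.3% higher against 66.8% as deposited, and the median of all measured genes moved by 0.20 (log2) against marker-negative and 0.82 against ALCAM+. Divided by the hybridization controls it became 780 and 163, 82.7% higher. Directions below are relative to the deposited scale, and fewer cells of a type and less RNA per cell cannot be told apart on these arrays. The 3' to 5' signal ratio of Actb was 2.55 to 2.77 and that of Gapdh 3.75 to 3.96.

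Sca-1+ had more genes apart from both others than either of the other fractions. ALCAM+ had 138 genes (1.09%) higher and 86 (0.68%) lower than both, and marker-negative 205 (1.62%) and 59 (0.467%). Among the 510 higher genes the median fold was 6.96, with 217 at least 8-fold and 85 at least 16-fold above both. The marker-negative array was the nearer for 298 of them, the ALCAM+ array for 96, and for 116 both lay at or below the floor. Among the 254 lower genes the median fold was 7.12, and the Sca-1+ value of 85 lay at or below the floor. Of the higher genes 247 had further named probe sets above the floor on at least 1 array. For 228 of these (92.3%) all of them put Sca-1+ above both arrays, although only 128 (51.8%) had another at 4-fold. For the lower genes the counts below both arrays were 107 (78.7%) and 64 (47.1%) of 136, and no share below both was computed over all genes. Over all measured genes, 32.1% of further probe sets put Sca-1+ above both and 2.31% did so at 4-fold, counted per probe set and not per gene. A probe set above the floor on the Sca-1+ array alone lies above both by this rule, so these shares are a description. At the edge of the rule, Opcml and Cdon lay just inside at 4.01-fold each, and Gask1b (just under 4-fold) and Nrn1 (3.99-fold) just outside. On the low side Gprc5c (4.01-fold) and Foxc2 (4.02-fold) lay inside, and Mpped2 (3.97-fold) and Nim1k (3.94-fold) outside. With all named probe sets of a gene averaged instead of the brightest taken, the counts became 354 and 188. Of the 143 higher and 58 lower genes named in this text, 29 and 10 then came under 4-fold, each still on its side. With probe sets averaged, the higher genes affected were Adamts5, Angpt1, Angptl1, Calcrl, Cdon, Cxcl12, Ebf3, Fbln5, Fmo2, Gas6, Igfbp5, Lamc1, Lepr, Mgst1, Ntn1, Opcml, Osr2, Prrx1, Psmb8, Ptger3, Ptger4, Ptges, Ptgfr, Rgs5, Sfrp1, Slco2a1, Tlr4, Vcan and Wnt9a. The lower ones were Aldoc, Car12, Chrdl1, Gprc5c, Nt5e, Peg3, Ramp1, Rspo3, Slc26a2 and Unc5b. With the floor raised to the 75th percentile of all values (433.9), 36 higher and 16 lower named genes came under 4-fold. Of these, 48 stayed on their side. The higher ones were Ace, Aldh1a2, Angpt1, C2, Camp, Ccl8, Chil3, Chst7, Crabp2, Cxcl13, Ebf3, Fmo2, Gbp6, Ggt5, Ifi204, Ifi207, Ifit1 and Igfbp3. Also Itga2b, Itgb3, Kcnj8, Lepr, Ltf, Meox1, Opcml, Osr1, Osr2, Podn, Psmb8, Ptger3, Ptges, Ptgfr, Tek, Tlr4, Vegfd and Wnt2 were affected. The lower ones were Aldoc, Bmp7, Bmp8a, Entpd3, Foxc2, Gprc5c, Ihh, Loxl4, Mmp13, Notum, Ramp1, Rspo3, Sp7, Stc2, Unc5c and Vdr.

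**Figure D1:**
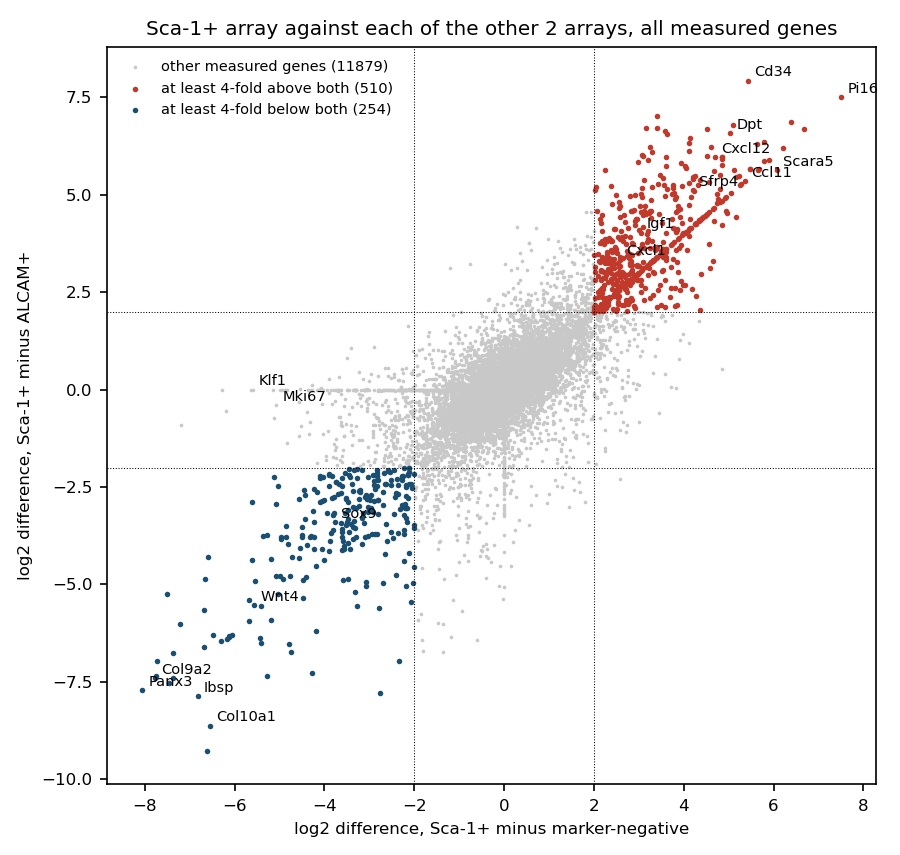
Log2 difference of Sca-1+ from marker-negative (horizontal) and from ALCAM+ (vertical) for each of the 12643 measured genes, values raised to the floor, with dotted lines at 4-fold. The 510 higher genes fill the upper right corner, where Pi16 and Cd34 lie farthest out, and the 254 lower genes fill the lower left, whereas Mki67 and Klf1 lie low on the horizontal axis and near 0 on the vertical.

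The gene lists used from here on were, like the markers, written with earlier results of these arrays known, or after the values were seen where so stated. Some hold markers of the fraction, so their counts are a description. Surface genes of progenitor cells and fibroblasts separated Sca-1+ from both other fractions. Of 21 measured genes on that list, 10 were higher and 1 was lower, with a median log2 difference of 2.73 from marker-negative and 2.05 from ALCAM+, against 0 and 0.01 over all measured genes. Cd248, the stromal receptor endosialin, read 7749.5, 51.2 and 41.7 and was at least 103-fold higher, since both other values lay below the floor. Scara5, a ferritin receptor, read 13947, 207 and 282 (49.5-fold), and Thy1, which encodes CD90, read 9619, 421 and 150.5 (22.9-fold). Both other arrays were low for these genes. Dpp4, a peptidase gene that marks fascia and adventitial progenitors, read 1879.9, 52.7 and 4.80 (at least 24.9-fold), and Procr, the protein C receptor, 7299, 416 and 82.7 (17.5-fold). Pdgfrb, the receptor for PDGF-BB, was less far apart at 12538, 1634 and 604 (7.67-fold). Pdgfra, a related receptor gene and a usual mark of mesenchymal progenitors, read 11647, 672 and 5122 and missed the rule because the ALCAM+ array was within 4-fold. The lower gene was Nt5e, which encodes CD73, the enzyme that makes adenosine, at 934, 7787 and 6230.1 (6.67-fold), which came under 4-fold with averaged probe sets and under either scaling on controls.

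Matrix genes of fibroblasts were higher in Sca-1+. In the fibroblast matrix list 18 of 40 measured genes were higher and 0 lower, with medians of 1.75 and 2.92. Among genes of fibril-associated proteins, Col14a1, a collagen that coats fibrils, read 21748, 638 and 197 (34.1-fold), and Tnxb, the connective tissue tenascin, 20505, 1951 and 159 (10.5-fold). Some higher genes encode parts of elastic fibres, for which there was no list, so that those given here were picked from several lists after their values were seen. Beside Mfap5, elastin itself (Eln) read 2264, 234 and 107 (9.68-fold), the fibulin gene Fbln2 7297, 298 and 97.8 (24.5-fold), and Fbln5, needed for elastic fibre assembly, 6727, 570.5 and 177 (11.8-fold, but under 4-fold with probe sets averaged). The elastin-linking enzyme gene Loxl1, held on another list, had 16408, 992 and 320 (16.5-fold), and Ltbp4, which holds latent TGF-beta in such fibres, 7831, 339.6 and 62.5 (23.1-fold). In all 6 the ALCAM+ array was the dimmest. The related Loxl4 went the other way, at 214, 1392 and 6709 (6.51-fold lower).

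Some abundant collagen and proteoglycan genes of interstitial matrix stayed within 4-fold and others were higher. Col3a1, named here after its values were seen like the other genes of this paragraph, read 33329, 14859 and 8801, highest in Sca-1+ but within 4-fold. Dcn (decorin) read 31805, 26807 and 41199, Lum (lumican) 20380.1, 18990 and 36894, and Col6a1 22432, 25806 and 26076, all within 4-fold on the 3 arrays, so these transcripts were bright in each fraction. Vcan (versican), a large proteoglycan gene, was higher at 14580.2, 1539 and 196 (9.47-fold, but under 4-fold with probe sets averaged), and so was Podn (podocan) at 1088, 168 and 148 (6.49-fold). Has1, which makes hyaluronan, was among the higher genes at 15169, 640 and 1147 (13.2-fold), whereas Has2 read 998, 932 and 628. Postn, a matrix protein gene of periosteum and fibroblasts that had been placed on the bone matrix list, was higher at 17956, 1168 and 1379.9 (13-fold), and so was Aspn, a small proteoglycan gene, at 9895, 1472 and 561 (6.72-fold).

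The list of basement membrane genes was written after their values were seen. Of 23 measured genes, 9 were higher and 1 lower. The network-forming collagen IV genes Col4a1 and Col4a2, which share a promoter region head to head, read 13827, 804 and 352 and 9094, 685 and 281 (17.2-fold and 13.3-fold). A laminin trimer needs an alpha, a beta and a gamma chain, and a chain of each kind was higher: Lama2 at 5903, 542 and 261 (10.9-fold), Lamb1 at 7011, 253 and 155 (27.8-fold) and Lamc1, the gamma chain, at 2381, 204 and 172 (11.7-fold), which came under 4-fold with probe sets averaged. The nidogens, which tie laminin to collagen IV, split by gene. Nid1 was higher at 10921, 768 and 354 (14.2-fold) and Nid2 lower at 459, 5934 and 2925 (6.38-fold), though under 4-fold when scaled on controls.

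Factors that act on blood-forming cells were higher in Sca-1+. Of 19 measured genes, 11 were higher, 0 lower, and the medians were 3.10 from marker-negative and 3.29 from ALCAM+. Cxcl12, already taken as a marker of the fraction, is among the higher ones. Beside Cxcl12, Vcam1, an adhesion ligand for blood cells, read 3437, 234 and 130.2 (14.7-fold), and Lepr, the leptin receptor of marrow stromal cells, 1337, 140.5 and 108 (9.51-fold). Growth factor genes included Igf1 at 16476, 2001 and 1009 (8.23-fold), Csf1, the macrophage growth factor, at 3111, 305 and 261 (10.2-fold), and Fgf7 at 2319, 60.2 and 13.4 (at least 30.8-fold). For Igf1 and Csf1 each of the 3 further probe sets was also at least 4-fold above both arrays. Gas6, a ligand of the TAM receptor kinases, read 13492, 1265 and 348 (10.7-fold), and Angptl1 7424, 770 and 309 (9.64-fold). Kitl, which encodes stem cell factor, read 1513, 71.1 and 446: it was highest in Sca-1+ but within 4-fold of the ALCAM+ array. Tgfb1, which keeps stem cells quiescent, went against the list with 409, 1395 and 2699.5, the lowest value being that of Sca-1+, within 4-fold of marker-negative. With probe sets averaged the count of higher genes was 6, since Cxcl12 (log2 difference 1.82), Angpt1, Angptl1, Gas6 and Lepr came under 4-fold, and under either scaling on controls it was 14.

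**Figure D2:**
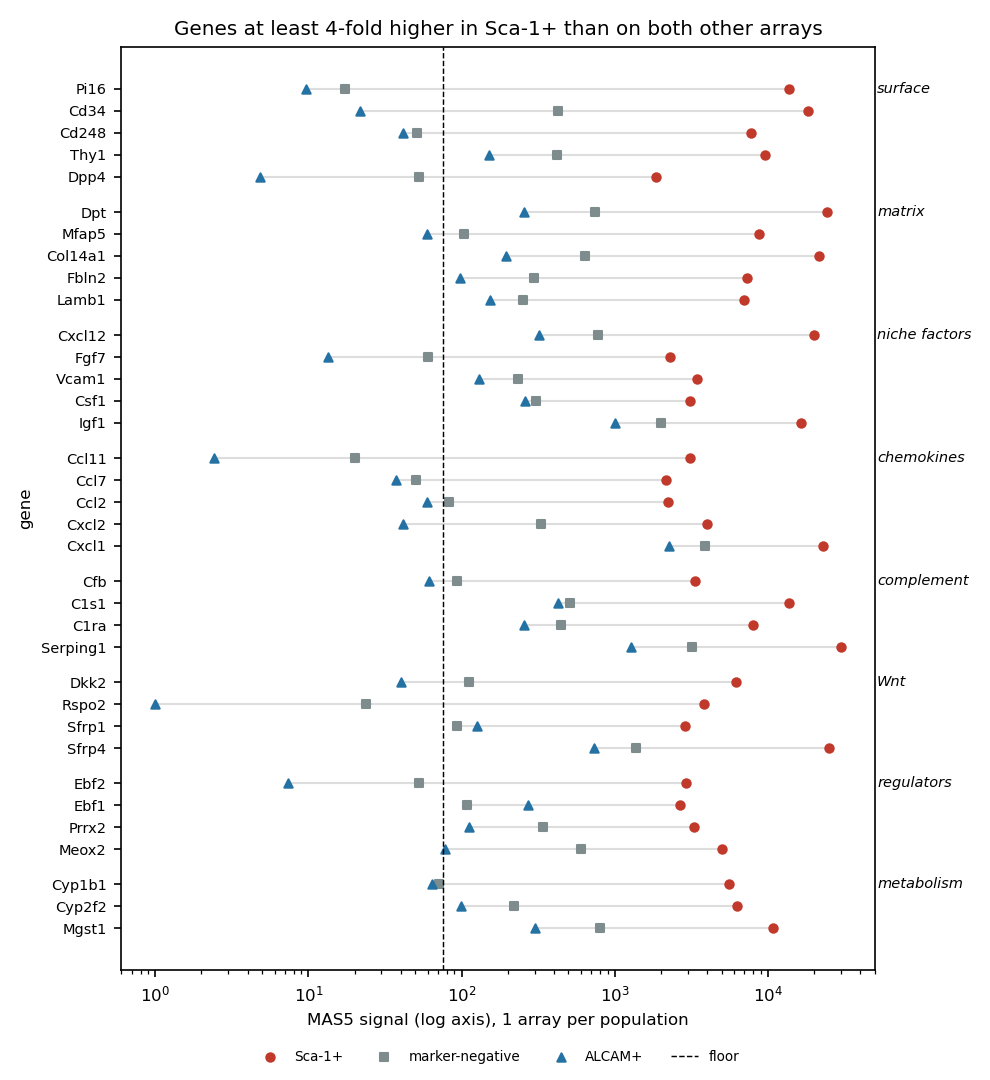
MAS5 signal (log axis) of higher genes on each array, 1 point per population, grouped by role, with the floor of 75.4 as a dashed line. In every row the Sca-1+ point lies to the right of both others, and for Pi16, Cd248, Dpp4, Fgf7, Ccl11, Ccl7, Rspo2, Ebf2 and Cyp1b1 both others lie left of the floor.

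Chemokine genes were higher as well. On their list 9 of 26 measured chemokine and cytokine genes were higher and 0 lower, with medians of 0.94 and 1.71. The monocyte and eosinophil attractants Ccl2, Ccl7, Ccl8 and Ccl11 were neighbours on chromosome 11 in the RefSeq order of measured protein-coding genes. They read 2249, 83.2 and 59.8, then 2170.3, 50.7 and 37.4, then 922, 78.9 and 11.1, and 3091, 20.1 and 2.40 for Ccl11. They were 27-fold, at least 28.8-fold, 11.7-fold and at least 41-fold higher. The Ccl11 transcript was below the floor on both other arrays. Il33, a nuclear cytokine released by damaged stromal cells, read 5131, 521 and 40.9 (9.85-fold), and Cxcl13, which attracts B cells, 724, 26.6 and 35.2 (at least 9.60-fold). Il6 stepped down over the 3 fractions at 9399, 4377 and 882 without reaching 4-fold. Of the list 3 genes were at least 4-fold lower than in marker-negative cells, named here after their values were seen: Lif at 201, 1513 and 416, Il11 at 61.3, 420.3 and 155 and Csf2 at 73.1, 338 and 67.7.

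The neutrophil attractants Cxcl1 and Cxcl2, neighbours on chromosome 5, were both higher, and their promoters are shown because they share a run of letters that is rare in this collection. Cxcl1 read 23114, 3879 and 2286 (5.96-fold), with both of its further probe sets at least 4-fold above both arrays, and Cxcl2 read 4009, 332 and 41.7 (12.1-fold). Cxcl1 was bright on all 3 arrays, whereas Cxcl2 was below the floor on the ALCAM+ array. RefSeq promoter windows (build GRCm38.p6) from 250 bases before to 50 bases after the start were found for 10215 measured genes, and the first listed window of each gene was searched on both strands. The longest run common to the 250 bases before both starts was the 14 letters GGGAATTTCCCTGG, and these 2 windows were the only ones to hold it. Its first 10 letters, GGGAATTTCC, a form of the sequence bound by NF-kB, occurred in 9 of the 10215 windows (0.0881%). Among the 375 higher genes with a window they occurred in 2 (0.533%), which were Cxcl1 and Cxcl2, and among the 193 lower genes in 0; since the letters were taken from these promoters, this is a description. Printed are the 250 bases before each start site, 5' to 3' on the plus strand, at chr5:90890995-90891244 for Cxcl1 and chr5:90903649-90903898 for Cxcl2, with the shared 14 letters in capitals.
Cxcl1: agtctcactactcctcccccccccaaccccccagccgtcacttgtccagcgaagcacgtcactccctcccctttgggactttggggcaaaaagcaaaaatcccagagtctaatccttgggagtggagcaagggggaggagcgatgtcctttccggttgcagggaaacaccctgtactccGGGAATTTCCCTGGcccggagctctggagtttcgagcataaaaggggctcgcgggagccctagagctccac
Cxcl2: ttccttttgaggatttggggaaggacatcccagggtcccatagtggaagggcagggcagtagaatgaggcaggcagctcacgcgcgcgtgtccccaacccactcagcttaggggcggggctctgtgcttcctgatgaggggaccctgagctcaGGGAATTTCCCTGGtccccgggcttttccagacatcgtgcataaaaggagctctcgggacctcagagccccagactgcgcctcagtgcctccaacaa
The shared run ends 57 bases before the Cxcl1 start and 83 bases before the Cxcl2 start. A match says only that these letters are present, and no binding was measured.

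Some genes of the complement cascade were higher, among them genes of proteases and of regulators. In total 8 of 14 measured genes of the complement and acute phase list were higher and 0 lower, with medians of 3.02 and 2.57. The proteases of the C1 complex, C1ra and C1s1, read 7985, 444 and 258 (18-fold) and 13828, 515 and 428 (26.9-fold). Cfb, the factor B of the alternative pathway, read 3339.7, 93.6 and 61.5 (35.7-fold), and its neighbour C2 1156, 56.7 and 168 (6.90-fold). Inhibitor genes were among the higher ones too: Serping1, which blocks C1, read 29987, 3208 and 1289.6 (9.35-fold), and Cd55, which speeds the decay of convertases, 4013, 202 and 104 (19.8-fold). Lcn2, an iron-scavenging acute phase gene, read 1778, 62.6 and 7.40 (at least 23.6-fold), but it is a neutrophil granule gene as well. Neutrophil markers moved with this list, as set out further on, and their part in the result was not tested.

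Sensors of microbial products were higher, on a list that was also written after the values were seen. There 10 of 22 measured genes were higher and 0 lower. Tlr4, the receptor for lipopolysaccharide, read 1063, 122 and 85.8 (8.71-fold, but under 4-fold with probe sets averaged), and Lbp, which delivers lipopolysaccharide to it, 13587, 2268 and 517 (5.99-fold). Tlr2, a receptor for bacterial lipoproteins, read 2216, 435 and 265 (5.10-fold), and Irak3, a brake on this pathway, 2296, 162 and 139 (14.2-fold). Receptor, ligand carrier and inhibitor thus shared the order Sca-1+, marker-negative, ALCAM+. Ifi204, Ifi207 and Mndal, neighbouring genes of the interferon-inducible p200 family, were at least 17.3-fold, at least 13.4-fold and 44.5-fold higher, though probe sets for such similar genes may not tell them apart. The interferon and antigen presentation list moved less, with 4 of 25 genes higher and 0 lower. They were Psmb8, an immunoproteasome subunit gene (10.6-fold, but under 4-fold with probe sets averaged), Ifit1 (at least 6.94-fold), Gbp6 (6.66-fold) and Gbp2 (6.06-fold). With the floor at the 75th percentile 4 sensor genes and 1 interferon gene were higher.

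Among 38 measured transcription factor genes of mesenchyme, 13 were higher and 2 lower, with medians of 1.53 and 1.01. The EBF genes on the list, whose products act in marrow stroma as well as in B cells, were all higher. Ebf1 read 2691, 108 and 272 (9.90-fold), Ebf2 2933, 52.7 and 7.30 (at least 38.9-fold) and Ebf3 1012, 216 and 126 (4.69-fold). The paired-type homeobox genes Prrx1 and Prrx2 of limb mesenchyme read 11002, 1481 and 2468 (4.46-fold) and 3301, 340.4 and 113 (9.70-fold), and the odd-skipped genes Osr1 and Osr2 were at least 6.83-fold and 8.01-fold higher. The mesenchyme homeobox gene Meox2 stepped down over the 3 fractions at 5061, 606 and 78.4 (8.35-fold), and Meox1 was 5.19-fold higher. Pairs or sets of related factors were therefore higher together in 4 families. The lower genes were Foxc2, at 137, 552 and 615 (4.02-fold), and the imprinted gene Peg3, at 3238, 14111 and 13018 (4.02-fold), but both came under 4-fold after quantile normalization and under either scaling on controls. With probe sets averaged the count of higher genes was 8, without Prrx1, Ebf3 and Osr2 among others, and it was 7 with the floor at the 75th percentile.

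Wnt pathway genes went both ways, and so did antagonists, potentiators and ligands each among themselves. Of 23 measured genes 7 were higher and 6 lower, with medians of -0.14 and -0.39, which turned positive under either scaling on controls. Soluble modulators of the SFRP and Dickkopf families made up 5 of the 7 higher genes. Sfrp1, Sfrp2 and Sfrp4, decoys for Wnt ligands, read 2899.7, 93.2 and 126 (23.1-fold), 3094, 254 and 190.4 (12.2-fold) and 25312, 1381 and 732 (18.3-fold), although none of the 3 further Sfrp1 probe sets reached 4-fold. Dkk2, which binds the LRP coreceptors, read 6188, 112 and 40.2 (55.5-fold). The potentiator Rspo2 was higher at 3826, 23.6 and 1.0 (at least 50.7-fold), whereas its relative Rspo3 was lower at 180, 3407 and 1052 (5.85-fold; under 4-fold with averaged probe sets or scaling on controls). The ligand genes Wnt4, at 73.7, 3587 and 3498 (at least 46.4-fold), and Wnt5b, at 166, 1949.9 and 2840.5 (11.8-fold), were lower. The ligand genes Wnt2, at 671, 14.7 and 7.60 (at least 8.90-fold), and Wnt9a, at 1907, 240.2 and 168 (7.94-fold, but under 4-fold with probe sets averaged), which are not on the list and were picked after their values were seen, were higher. On the low side of the list were also the antagonists Frzb at 71.3, 2014 and 8067 (at least 26.7-fold) and Notum at 60.6, 1283 and 552 (at least 7.32-fold), and Ccn4, a Wnt target, at 228, 2197 and 10822 (9.62-fold).

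Ligands and binding proteins of the BMP family also went both ways. In the BMP and TGF-beta list 5 of 32 genes were higher and 3 lower. Bmp4 was the higher ligand, at 3378, 394 and 186 (8.58-fold), and Bmp7, at 62.9, 1749.7 and 1263 (at least 16.7-fold), and Bmp8a, at 94.9, 799 and 2908 (8.42-fold), the lower ligands. Of the binding proteins, Fst (follistatin, which traps activin) read 2402, 177 and 136 (13.6-fold) and Bmper 4338, 476 and 269.9 (9.12-fold), whereas Chrdl1, a chordin-like trap, read 911, 4343 and 4252 (4.67-fold; under 4-fold with averaged probe sets or scaling on controls). In the IGF list 5 of 15 were higher, namely Igf1 and the binding proteins Igfbp3 (7.56-fold), Igfbp4 (6.14-fold), Igfbp5 (5.63-fold, but under 4-fold with probe sets averaged) and Igfbp6 (4.19-fold). Igfbp6 was bright in Sca-1+ at 22942 and stepped down to 5474 and 949. Stc2, a stanniocalcin gene, was the lower member, at 75.5, 776 and 1069.5 (10.3-fold).

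Enzymes on the outer face of the cell went both ways, with most of them higher, on another list assembled after the values were seen. Here 12 of 18 measured ectoenzyme genes were higher and 4 lower. Peptidases of the angiotensin system were among the higher: Ace, which makes angiotensin II, read 1276, 28.7 and 106 (12.1-fold), and Enpep, which trims it, 4053, 250.1 and 75.9 (16.2-fold). Dpep1, a dipeptidase, read 3828, 86.1 and 33.9 (44.5-fold), and Ggt5, which acts before it on leukotriene C4, 1343, 73 and 9.0 (at least 17.8-fold). The amine oxidase gene Aoc3, also an adhesion receptor, read 3396, 90.2 and 30.9 (37.7-fold). The enzymes of extracellular nucleotides divided. Entpd2, which removes a phosphate from ATP, was higher at 8842, 305 and 161 (29-fold), whereas Entpd3, at 18.1, 380 and 9389 (at least 5.04-fold), Nt5e and the alkaline phosphatase gene Alpl, at 299, 12905 and 24709.8 (43.1-fold), were lower.

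Secreted proteases and their inhibitors contributed 9 higher and 1 lower genes of 31. Plat, the tissue plasminogen activator, read 5877, 812 and 247 (7.24-fold), Mmp3, a stromelysin, 4040, 896 and 381 (4.51-fold), and Adamts5, an aggrecan-cleaving enzyme, 5443, 1268 and 966 (4.29-fold, but under 4-fold with probe sets averaged). Mmp13, the collagenase of growth plate and bone, was the lower gene at 212, 1622 and 2752 (7.67-fold). Rarres2, which encodes the attractant chemerin, read 7996, 459 and 115 (17.4-fold), and Gpr1, a chemerin receptor, 2287, 31.3 and 35.1 (at least 30.3-fold). Ligand and receptor genes were thus both high on the Sca-1+ array.

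Detoxifying and retinoid enzymes formed another large higher group, with 14 of 32 measured genes higher, 0 lower, and medians of 2.25 and 2.21. Of the oxidases, Cyp1b1 read 5596, 71.6 and 64 (at least 74.2-fold), Cyp2f2 6322, 219.9 and 99.9 (28.8-fold), and the flavin monooxygenase neighbours Fmo1 and Fmo2 were 15.6-fold and at least 22.4-fold higher. Glutathione transferases followed, with Gstm1 at 7401, 721 and 584 (10.3-fold), Gstt1 at 3162, 181 and 118 (17.5-fold) and the microsomal Mgst1 at 10880.2, 800.1 and 300 (13.6-fold). Transferases of the mu class are close copies, so the Gstm1 value may hold signal from its relatives. Sod3, the extracellular superoxide dismutase, read 7672, 632 and 122 (12.1-fold). Aldh1a2, which makes retinoic acid, was higher at 851, 60 and 9.10 (at least 11.3-fold), together with Crabp2, which carries it to the nucleus, at 1291, 249.7 and 179 (5.17-fold).

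The lipid and prostaglandin list had 7 higher and 2 lower genes of 25. Prostaglandin genes were spread over the pathway: the E2 synthase Ptges was at least 4.68-fold higher, the receptors Ptger3, Ptger4 and Ptgfr 5.76-fold, 4.84-fold and at least 14.6-fold, and the transporter Slco2a1, from outside the list, 18.7-fold. None of these 5 reached 4-fold with probe sets averaged, where the list had 3 higher genes. Ptgs2, the inducible cyclooxygenase, read 3831, 1350.1 and 2567 and was not set off. Lpl, lipoprotein lipase, read 7558, 647 and 175 (11.7-fold), and the phospholipase gene Pla1a 4084, 118 and 82.7 (34.6-fold). Fat cell genes proper were dim, with Adipoq at 43.8, 120.4 and 24.6 and Pparg at 126, 19.1 and 5.30.

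On a list of 5 measured genes of adrenomedullin and CGRP signalling, 3 were higher and 1 lower. Calcrl and Ramp2, which join to form the adrenomedullin receptor, read 1915, 52.8 and 18 (at least 25.4-fold) and 5140, 280.2 and 121 (18.3-fold), and the ligand gene Adm read 4479, 309.7 and 985 (4.55-fold). With probe sets averaged Calcrl came under 4-fold, and 2 genes of the list were higher. Ramp1, which would turn Calcrl into the CGRP receptor, was lower at 168, 690.5 and 5262 (4.10-fold), although neither of its 2 further probe sets put Sca-1+ lowest and the call was lost under 5 of the alternatives. The lymphatic growth factor genes Vegfc and Vegfd were 8.29-fold and at least 11-fold higher, while Vegfa was dimmest in Sca-1+ at 904, 2760.5 and 4497. Angpt1 read 758, 58.1 and 94.6 (8.02-fold), and its receptor gene Tek 631, 18.8 and 28.8 (at least 8.36-fold). Both short lists behind these results were written after the values were seen, and with the floor at the 75th percentile 1 of the VEGF and angiopoietin genes remained higher. Of guidance genes, 3 of 32 were higher and 3 lower. The ligand gene Ntn1 (netrin) was higher at 2656, 216 and 3.70 (12.3-fold), and the netrin receptor genes Unc5b and Unc5c were lower (5.16-fold and 9.97-fold), although Ntn1 and Unc5b came under 4-fold with probe sets averaged.

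Cartilage matrix genes had the largest share of lower members among the 40 lists. Together 21 of 30 measured genes were lower and 0 higher, with medians of -4.64 from marker-negative and -4.34 from ALCAM+. Collagen II and its partners were all lower: Col2a1 read 1125, 24959 and 33309.6 (22.2-fold), Col11a1 1271, 27258 and 35620.1 (21.4-fold), and the 3 chains of collagen IX, Col9a1, Col9a2 and Col9a3, were 70.1-fold, 169-fold and 167-fold lower, with 1 of 2 further Col9a3 probe sets on the same side. Acan, the main cartilage proteoglycan, read 2128, 25524 and 31219 (12-fold), and Hapln1, which links it to hyaluronan, 277, 24719 and 21843 (78.9-fold). Matn3, a matrilin, read 104, 21992 and 12987 (125-fold), and Cnmd, chondromodulin, 344, 35092 and 33635 (97.7-fold). The other fractions were bright and near each other for most of these genes. Col10a1, the collagen of hypertrophic cartilage, was near 0 in Sca-1+ and differed between the others, at 3.30, 7099.7 and 29730 (at least 94.2-fold).

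The 9 cartilage list members that were not set off include genes of tendon and joint lining. Prg4, the joint lubricant, read 26651, 18212 and 1949.8, and Cilp, an intermediate layer protein, 19978, 16447 and 2298. Comp read 25933, 30884 and 36933 and Chad 17052, 24178 and 30196. Prg4 and Cilp were far dimmer on the ALCAM+ array, and all 4 genes lay within 4-fold between Sca-1+ and marker-negative. On the tendon, ligament and synovium list, 5 of 18 genes were higher and 0 lower. They were Dpt and Cd55, which other lists hold too, Clic5 at 2885, 18 and 52.6 (at least 38.3-fold), Tppp3, a mark of tendon sheath cells, at 19951, 1608 and 211 (12.4-fold), and Htra4 at 7934, 747 and 38.6 (10.6-fold). Its defining factor Scx was dim at 155, 98 and 124, and Tnmd read 4822, 2745 and 729.5. The part of such cells in the Sca-1+ values was not tested.

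Regulators of cartilage were low with the matrix. As many as 8 of 20 measured genes were lower and 0 higher. Sox9, the master transcription factor of chondrocytes, read 306, 4187 and 3249 (10.6-fold). Fgfr3, a brake on growth plate cells, read 311, 11429 and 6365 (20.5-fold), Pth1r, the parathyroid hormone receptor, 1391, 22562 and 28980.3 (16.2-fold), and the hedgehog ligand Ihh 64.1, 838 and 2204 (at least 11.1-fold). Sox5 and Sox6, partners of Sox9 named after their values were seen, read 347, 1505 and 604 and 374, 2348 and 948 and did not reach 4-fold against both. On a list of genes that make and sulphate chondroitin, written after the values were seen, 5 of 23 genes were lower and 1 higher, but under either scaling on controls 1 was lower and 2 were higher. The sulphate importer Slc26a2 read 637, 9448 and 2878 (4.52-fold), Papss2, which activates sulphate, 2524, 21492 and 17016 (6.74-fold), and the transferase Chst11 1729, 26449 and 15434 (8.93-fold). The higher gene was another transferase, Chst7, at 790.3, 49.1 and 68.9 (at least 10.5-fold). Under those scalings Chst11 was the gene that stayed lower, and Slc26a2 also came under 4-fold with probe sets averaged.

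Bone genes were lower in part. In the bone matrix and mineralization list 7 of 23 genes were lower, and Postn was the only higher gene. Ibsp, bone sialoprotein, read 161, 18264 and 37633 (113-fold), and Alpl, which frees phosphate for mineral, was 43.1-fold lower. Slc13a5, a citrate carrier, read 167, 7159 and 15093 (42.8-fold), and Smpd3, a sphingomyelinase needed for mineralization, 1182, 14402 and 16148 (12.2-fold). On the osteoblast regulators list 3 of 18 genes were lower and 0 higher, 6 were brightest in Sca-1+, and the medians were 0.00 and -0.71. The lower ones were Pth1r, which is on the cartilage list as well, and 2 transcription factor genes. Sp7 (osterix) read 77.7, 779 and 2868 (10-fold) and Vdr, the vitamin D receptor, 142, 893 and 2627 (6.30-fold). Col1a1, the main collagen of bone, read 7959, 13081 and 49506, below both others but within 4-fold of marker-negative. On the osteocyte list 1 of 10 genes, Capg, was higher (6.96-fold) and 0 lower, while 5 were at least 4-fold lower than in ALCAM+ cells. Among those Dmp1 read 11.8, 115 and 6431 and Phex 1376, 1165 and 16703.

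**Figure D3:**
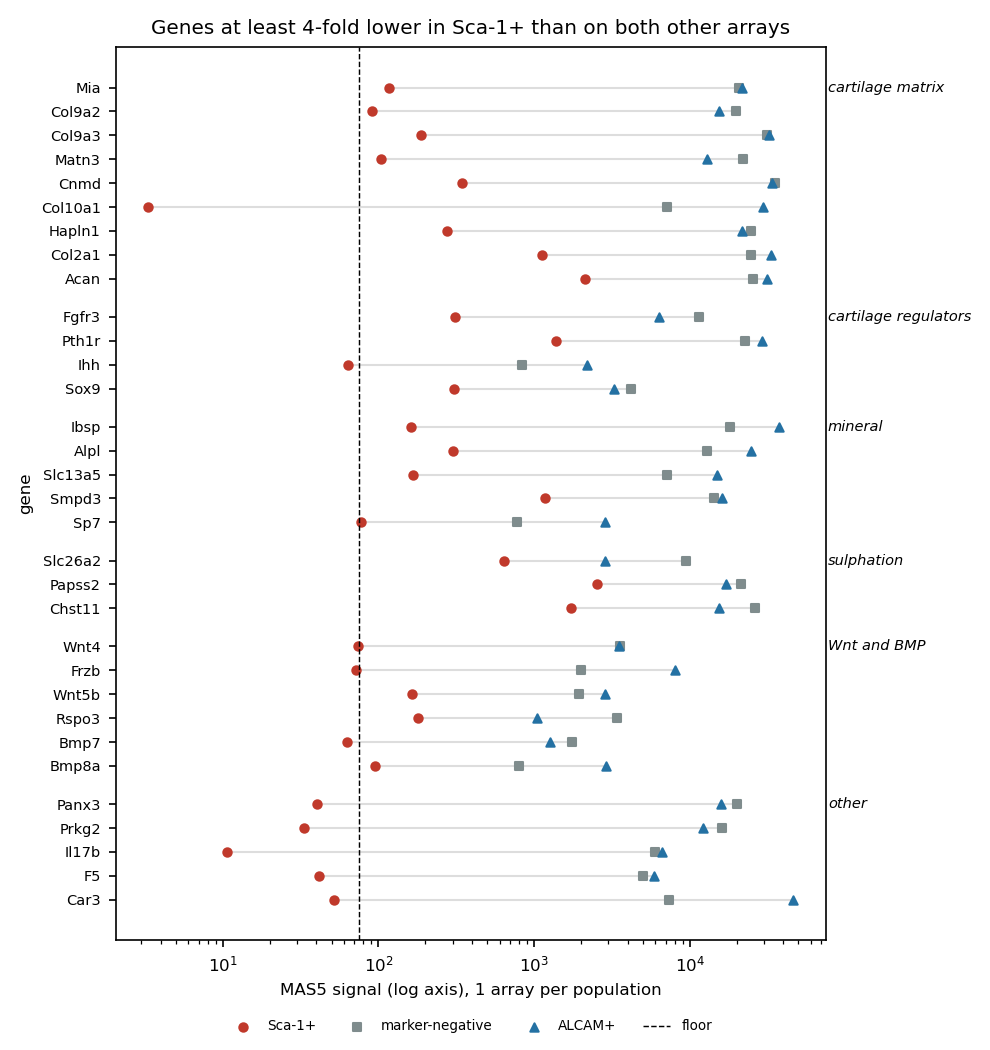
MAS5 signal (log axis) of lower genes on each array, 1 point per population, grouped by role, with the floor of 75.4 dashed. In every row the Sca-1+ point lies left of both others, which for Mia, Col9a3 and Cnmd nearly coincide. With values raised to the floor, the fold is smallest for Slc26a2 (4.52-fold) and largest for Panx3 (at least 210-fold). The points themselves are not raised to the floor, and the Sca-1+ point of Col10a1 lies at 3.3, so its plotted gap is wider than that of Panx3.

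Several of the lowest genes fall outside the lists. Panx3, a channel gene of chondrocytes and osteoblasts, read 40.5, 20137 and 15858 (at least 210.3-fold), although 1 of its 2 further probe sets put Sca-1+ below both others and 0 reached 4-fold, and Prkg2, a cGMP-dependent kinase of the growth plate, 33.2, 16232 and 12232 (at least 162-fold). Il17b, a cytokine gene, read 10.7, 5969.5 and 6659 (at least 79.2-fold) and F5, coagulation factor V, 41.4, 5035 and 5906 (at least 66.8-fold). Fxyd2, a subunit of the sodium pump, read 47, 12578 and 8215 (at least 109-fold). All 5 were below the floor in Sca-1+ and bright on both other arrays. Car3, carbonic anhydrase 3, read 51.9, 7384 and 46407 (at least 97.9-fold), with 1 of its 3 further probe sets pointing the same way, and its neighbour Car2 read 17, 13751 and 2879 (at least 38.2-fold). The amino acid carriers Slc38a3 and Slc38a4 were at least 42.4-fold and at least 27.6-fold lower, the further Slc38a3 probe set not pointing the same way. Serpina1b and Serpina1c, close copies of the antitrypsin gene that probe sets may not separate, were 29-fold and at least 64.8-fold lower.

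Few genes of energy metabolism and of the collagen secretion route were set off, but both lists leaned low on the deposited scale. Sca-1+ was dimmest for 13 of 24 glycolysis and hypoxia genes and 23 of 36 collagen processing genes, against 33% of all measured genes. The medians of the glycolysis and hypoxia list were -0.67 and -0.17. The latter is small beside the effect of scaling on the poly-A controls, which brought the median of all measured genes against ALCAM+ to 0.82. Of 24 glycolysis and hypoxia genes, 2 were lower (Aldoc, at least 7.06-fold, and Car12, 7.59-fold, with 1 of 2 further Car12 probe sets on the same side; 0 were lower with probe sets averaged) and Adm alone was higher. Of 36 collagen processing genes, Loxl1 was higher and Loxl4 lower, and the medians were -0.55 and -0.61, the latter positive under either scaling on controls.

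**Figure D4:**
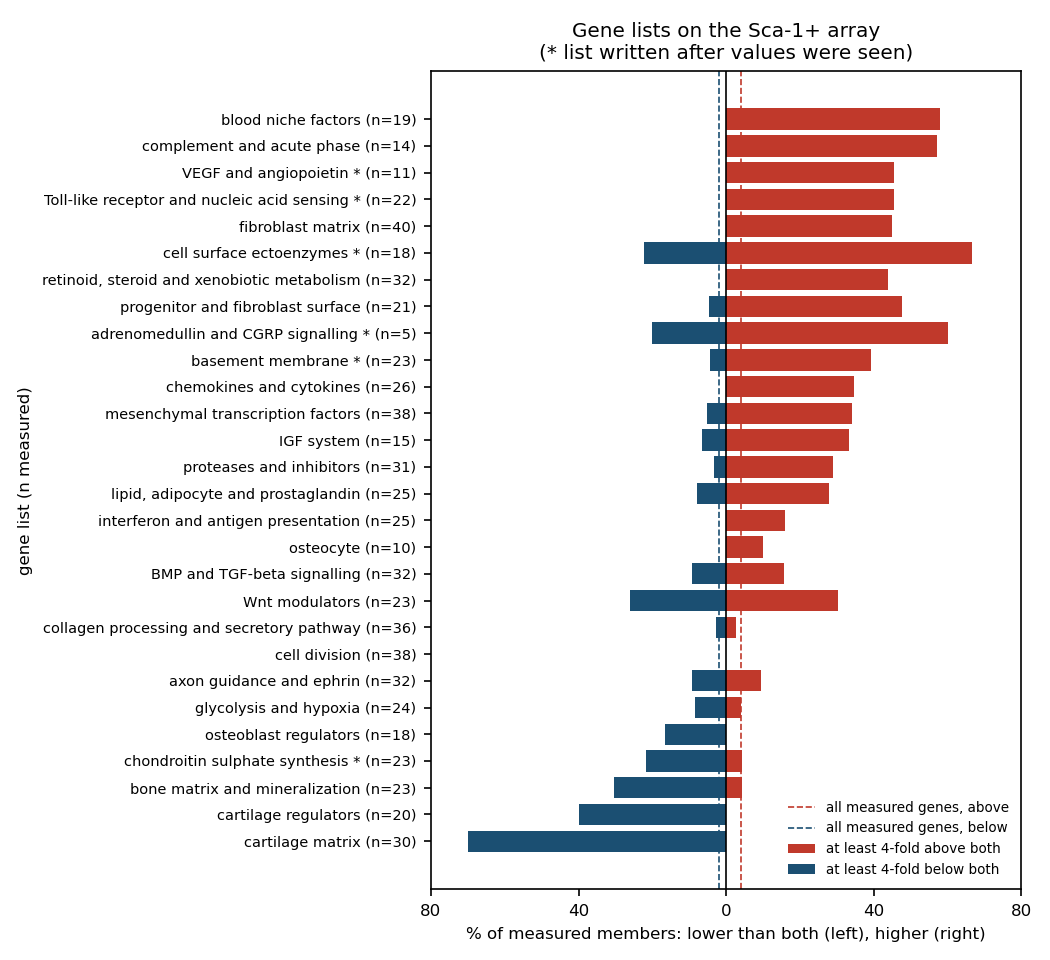
Percent of the measured members of each gene list that were at least 4-fold above (right) or below (left) both other arrays on the Sca-1+ array, with dashed lines at the 4.03% and 2.01% of all 12643 measured genes. Niche factors, complement and fibroblast matrix reach far to the right, cartilage matrix and regulators far to the left, Wnt modulators to both sides, and cell division has no bar.

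Cell division genes set Sca-1+ apart from the marker-negative array alone. Of 38 measured genes 31 were at least 4-fold lower than in marker-negative cells and 0 than in ALCAM+ cells, beside 4.71% and 3.99% of all genes, and the medians were -3.34 and 0.00. Mki67 read 204, 6858 and 269, Top2a, the replication topoisomerase, 116, 3299 and 301, and Cdk1, the kinase of mitotic entry, 7.50, 1794 and 172. Sca-1+ and ALCAM+ were near each other for Mki67 and far below marker-negative. Red cell genes had the same shape, with 17 of 20 lower than in marker-negative cells. Klf1, a factor of red cell precursors, read 58.6, 3649 and 58.6, and Slc4a1, the red cell anion exchanger, 13.8, 2414 and 52.9. The marker-negative values of these lists come beside each other, and the part of red cell precursors in the comparison with that array was not tested.

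Neutrophil genes were the blood cell markers that stood out on the Sca-1+ array, although CD45+ cells had been left out by the sort. Of their list, 7 of 18 measured genes were higher and 0 lower, and 3 more were below the floor on all arrays. The calprotectin genes S100a8 and S100a9 read 4900.5, 576 and 77.3 (8.51-fold) and 2192, 255 and 98.8 (8.59-fold), and the granule genes Ngp and Ltf 4538, 158 and 46.5 (28.6-fold) and 1116, 67.9 and 56.1 (at least 14.8-fold). Camp and Chil3 were at least 20.9-fold and at least 17.7-fold higher. Genes of early granulocytes had another order: Mpo read 91.4, 1355 and 25.2 and Elane 63.5, 483 and 37.3, both brightest in marker-negative cells. Without Anxa1, which was bright on all arrays at 25183, 17534 and 12498, the signals of the other 17 measured genes summed to 18480.4 on the Sca-1+, 4221 on the marker-negative and 698 on the ALCAM+ array. The receptor gene Csf3r of neutrophils was near the floor at 76.1, 68.4 and 86.1. The part of such cells in the complement, chemokine and sensor genes above was not tested.

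Markers of other cells that were set off were few in number, on lists with few measured genes. As shares of such short lists they were not small beside the 4.03% higher and 2.01% lower among all measured genes. On the pericyte and smooth muscle list 21.4% were higher, and on the skeletal muscle list 28.6% were lower. Of 9 measured macrophage genes Lyz1 alone was higher, at 2823, 544 and 70.8 (5.19-fold), with the macrophage receptor gene Csf1r at 166, 134 and 201. Of 12 endothelial genes Tek alone was higher, while Kdr, the main VEGF receptor gene, was near the floor at 53.8, 62.2 and 76.7. Among 14 pericyte and smooth muscle genes, Rgs5 at 2333, 276 and 58.6 (8.45-fold, but under 4-fold with probe sets averaged), Kcnj8 (4.65-fold) and Pdgfrb were higher, whereas Cspg4, which encodes NG2, read 3278, 10408 and 8932 and Acta2 3821, 3532 and 971. Of 6 megakaryocyte and mast cell genes the integrin gene Itga2b was higher (5.17-fold), and of 9 osteoclast genes its partner Itgb3, at 1714, 65.8 and 8.0 (at least 22.7-fold). Pf4, a platelet gene, read 48.2, 185 and 24.3. On the low side were 1 of the 9 osteoclast genes, 2 of 7 skeletal muscle genes and 1 of 12 nerve and glia genes. Of 7 lymphocyte and plasma cell genes 1 was higher, and of 9 adipocyte genes 1 was higher and 1 lower.

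**Figure D5:**
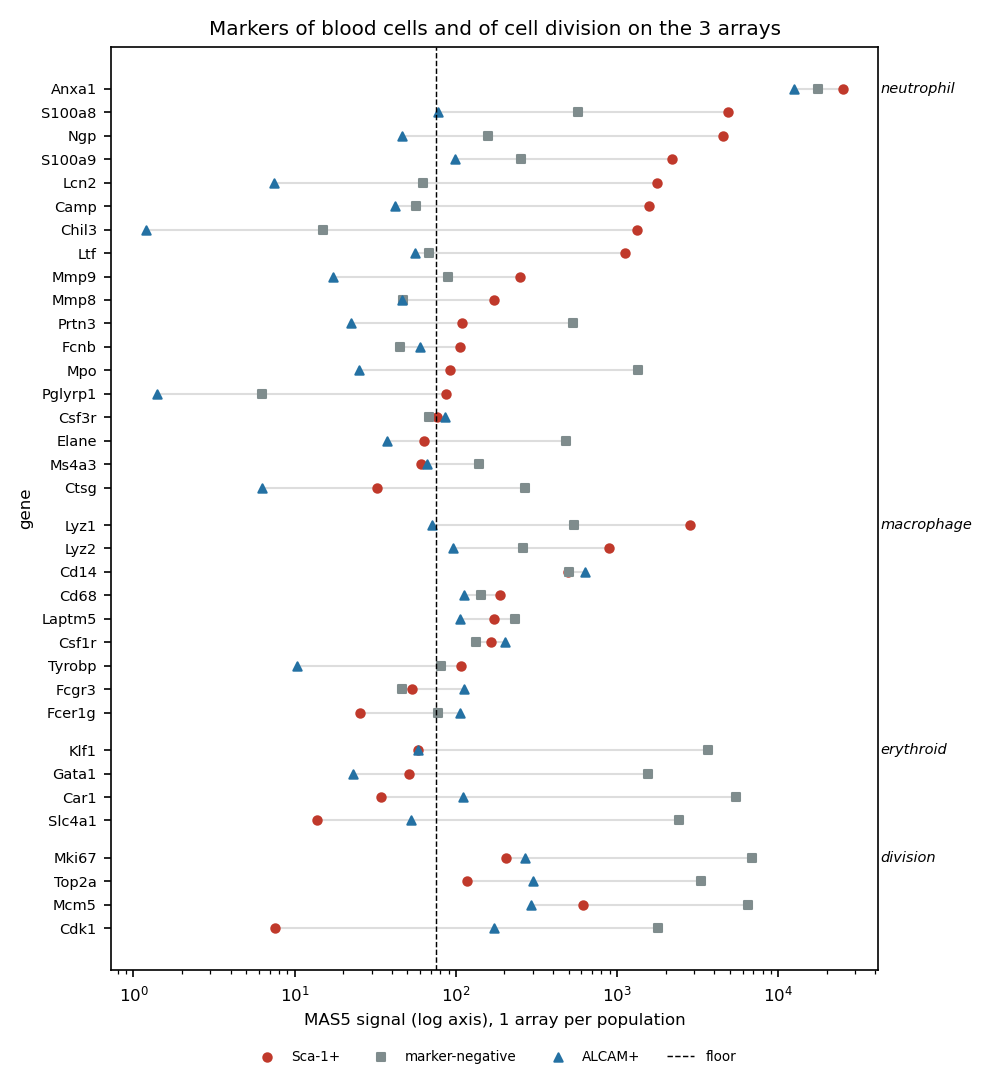
MAS5 signal (log axis) of markers of neutrophils, macrophages, red cells and dividing cells on each array, 1 point per population, with the floor of 75.4 dashed. Late granule genes such as Ngp, Camp and Chil3 lie farthest right in Sca-1+, Mpo and Elane in marker-negative, and red cell and division genes in marker-negative alone.

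Some of the higher genes were next to each other in the RefSeq order (assembly GRCm38.p6, used here for order only) of the measured protein-coding genes. Genes that were not measured or not protein-coding were skipped, so others may lie between them. Genes called neighbours in this text were neighbours in that order. There were 44 runs of at least 2 such adjacent genes that were all higher and 12 that were all lower. The longest held 5 genes on chromosome 1, Ackr1, a decoy receptor for chemokines, Cadm3, and the Ifi207, Ifi204 and Mndal genes. Other runs were the 4 Ccl genes, Fmo1 with Fmo2 and Prrx1, C1ra with C1s1, and Cfb with C2. Ang and Rnase4, ribonuclease genes with a shared promoter region, were 8.76-fold and 8.87-fold higher. No count of runs over all genes was made, so this is a description.

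The promoter windows of both gene sets differed in composition from those of all measured genes. The median ratio of observed to expected CpG was 0.559 over the 375 higher genes and 0.679 over the 193 lower genes with a window, against 0.758 over all 10215. The letters TATAAA, the core of the TATA box, occurred on either strand in 14.1% of windows of higher genes and 14.5% of lower genes, against 7.38% of all. TGACTCA, the sequence bound by AP-1, occurred in 5.60% and 7.77%, against 3.55% of all. The higher and the lower set thus lay on the same side of all genes in each of these measures, with the lower set nearer to all genes in CpG content. The windows were not matched for expression level, and no test was made.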

How the data were processed

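The 3 arrays, 1 per sorted population, were grouped by their titles. TRIzol was used to isolate RNA, per the labels' protocols, and 2 cycles of amplification, which favour 3' ends, gave the biotin-labelled cRNA. The deposited values are linear signal intensities of 45101 probe sets, which the authors computed with MAS5, according to the submitters' processing notes (version not given in the sources used here). Their 2% trimmed means were equal, so no further scaling was done. The 64 control probe sets were set aside. Of the others 34945 had 1 gene symbol in the array's annotation, 932 had several and 9160 were unlisted and are unnamed here (57 of these would have been higher and 36 lower). Of the identifiers 34741 were found in RefSeq (GRCm38.p6), which changed 0 symbols. Each gene took the values of its brightest probe set, by the mean over the arrays. The floor, ratios and 4-fold rule are given with the results. The number of arrays limits the precision. For 4152 genes with 2 probe sets above the floor on every array, the log2 differences of the pair had an SD of 0.47 (against marker-negative) and 0.53 (against ALCAM+), which leaves out the spread between mice and sorts.

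The population, its markers and 34 gene lists were chosen with earlier results of these data known, and 6 further lists were written after the values were seen; all 40 hold 961 genes, of which 766 were measured. Named are the markers and sorting genes, up to 30 genes per direction with the largest ratio above the floor on all arrays, up to 20 of the brightest whose ratio rests on the floor, and list members that were set off, or else up to 4 with the largest ratio. Any other named gene, including list members that were not set off, was chosen after its values were seen. The code of the rule was run on simulated data, with known changes above 4-fold in bright genes. This checked the code only and says nothing on the spread between mice or sorts. Alternatives were quantile normalization, 3 other floors, averaged probe sets, scaling on 2 kinds of controls, a pseudocount of 16 in place of the floor, and rules of 2-fold and 8-fold. Python 3.11.15, numpy 2.4.6, pandas 2.3.3 and matplotlib 3.10.9 were used.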

Additional observations from a re-analysis of the deposited data

How the results depend on the processing

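In place of 510 higher and 254 lower genes, raising the floor to the 75th percentile of all values (433.9) gave 270 and 119, and lowering it to the 25th (21.1) gave 384 lower genes. The counts were 777 and 156 when each array was divided by its poly-A controls, and 780 and 163 by its hybridization controls. A rule of 2-fold gave 1338 and 788, and a rule of 8-fold 217 and 115. The other 9 counts, from quantile normalization, a floor of 62.4 from 78 probe sets of olfactory or vomeronasal receptors (their 95th percentile), averaged probe sets and a pseudocount of 16, and the higher count at the 25th percentile, stayed within 1.5 times, from 354 to 638 and from 188 to 344. All 510 genes stayed brightest and all 254 dimmest in Sca-1+ under each alternative scale or floor, except with the floor at the 75th percentile, where 474 and 215 did, since more values were raised to it. At that floor the neutrophil list kept 4 higher genes. The BMP and TGF-beta list and the osteoblast regulators list kept 1 lower gene each, and the protease list 0. Of the genes named with a 4-fold difference 0 changed sign. No paired analysis was possible because each population has 1 array, and for the same reason no replicate could be left out. The 3 arrays give no spread between mice or sorts, values under the floor have no order, and whether the arrays' scale or their controls track RNA per cell was not tested.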
